A study of Mus musculus with 6 samples.

Results

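The dystrophin-glycoprotein complex and dysferlin were followed through 8 genes, Dmd, Utrn, Sgca, Sgcb, Sgcd, Dag1, Lama2 and Dysf, which were picked by symbol out of the 27179 genes counted in RNA of mouse quadriceps. Each of the 6 libraries came from a whole quadriceps sample labelled either miDrp1KO (libraries A, E and F) or Control f/f (libraries B, C and D), and all 6 animals ate normal chow. Per the study's methods, mice with loxP sites around Dnm1l, on the C57BL/6J background, were crossed with HSA-MerCreMer mice, in which tamoxifen activates a Cre recombinase driven by the human skeletal actin promoter. Dnm1l encodes Drp1, the dynamin-related GTPase that divides mitochondria. Controls also carried a floxed allele and also received tamoxifen, so that both groups share the drug and the floxed locus. Injections began at 3 months of age and the muscle was taken 3 weeks after the deletion. The Cre acts in muscle fibres, so the fibroblasts, vessels, nerves and immune cells of the muscle keep Dnm1l. Nothing in the labels says how litters or days were shared. Per the study's methods, libraries were pooled for sequencing, and the labels do not say which library was in which pool. The p-values measure the spread between these 6 libraries.

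Dystrophin is a long rod-shaped protein under the muscle membrane that holds actin filaments at one end and the dystroglycan and sarcoglycan proteins of the membrane at the other. Dystroglycan reaches outward to laminin in the basement membrane, so the complex ties the contractile cell to its surroundings and protects the membrane during contraction. Utrophin is a relative of dystrophin that is concentrated at neuromuscular junctions in adult fibres and can bind the same partners. Dysferlin lies outside the complex and is a calcium-binding membrane protein that takes part in resealing torn membrane. Loss of dystrophin, of a sarcoglycan, of laminin alpha 2 or of dysferlin causes muscular dystrophy in people.

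The sequences before the transcription starts are given first for the genes whose values stand apart below, namely Dysf, which had the lowest ratio of miDrp1KO to control, Lama2, the one gene with a higher mean in miDrp1KO, and Dmd, the gene with the most reads. RefSeq lists 11 starts for the 8 genes, all of which matched by gene identifier, and each sequence is the 250 bases before a start on build GRCm38.p6, written 5′ to 3′ on the gene's own strand. Capitals mark matches on either strand to the E-box CANNTG, bound by myogenic basic helix-loop-helix factors, to MEF2, to the CArG box of serum response factor, or to the NBRE octamer AAAGGTCA, bound by Nur77-type receptors. Sp1 matches (GGGCGG) are left in lower case. The Dysf windows lie at chr6:84008348-84008597 and chr6:84019136-84019385 on the plus strand, the Dmd window at chrX:82948620-82948869 on the plus strand, and the Lama2 window at chr10:27616943-27617192 on the minus strand.
Dysf start 1: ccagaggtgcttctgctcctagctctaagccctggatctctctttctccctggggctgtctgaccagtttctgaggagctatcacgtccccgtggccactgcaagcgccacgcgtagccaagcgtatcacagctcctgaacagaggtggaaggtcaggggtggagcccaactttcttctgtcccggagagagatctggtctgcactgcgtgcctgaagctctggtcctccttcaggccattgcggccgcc
Dysf start 2: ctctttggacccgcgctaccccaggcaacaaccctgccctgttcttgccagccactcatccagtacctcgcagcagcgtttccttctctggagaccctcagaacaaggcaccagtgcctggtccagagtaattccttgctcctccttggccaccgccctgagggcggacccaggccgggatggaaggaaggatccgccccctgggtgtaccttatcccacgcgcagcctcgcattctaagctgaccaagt
Dmd start 1: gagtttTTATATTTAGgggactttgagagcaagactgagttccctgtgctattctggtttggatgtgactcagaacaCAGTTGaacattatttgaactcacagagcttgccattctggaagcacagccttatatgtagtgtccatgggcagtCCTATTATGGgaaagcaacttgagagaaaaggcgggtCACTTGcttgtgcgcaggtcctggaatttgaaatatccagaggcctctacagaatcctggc
Lama2: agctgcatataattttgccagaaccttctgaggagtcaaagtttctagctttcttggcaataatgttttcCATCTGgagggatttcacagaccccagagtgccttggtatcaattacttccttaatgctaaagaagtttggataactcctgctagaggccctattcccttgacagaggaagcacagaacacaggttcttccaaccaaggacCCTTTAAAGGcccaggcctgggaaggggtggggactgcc

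Neither Dysf window held a match to an E-box, MEF2, CArG or NBRE motif, and the second held 3 Sp1 matches. In the Dmd window the MEF2 match began 244 bases before the start, the CArG match 98 bases before it, and the E-boxes 173 and 61 bases before it. Lama2 had an E-box 180 bases and a CArG match 39 bases before its start. Over the 11 windows an E-box was found in 7 (6 genes), an Sp1 match in 6 (5 genes), a CArG match in 2 and a MEF2 match in 1, and NBRE in 0, where the 2 Dag1 windows overlap and share the same E-box and the same 3 Sp1 matches. Among all 32851 promoter windows of the same length, 66.2% held an E-box, 32.7% an Sp1 match, 2.92% a MEF2 match, 1.47% a CArG match and 1.34% an NBRE. These are letter matches in a short window and carry no measurement of binding. Some windows also overlap annotated exons of the same gene. The overlap was 197 of 250 bases for Sgcd, 143 for the second Dag1 window, 53 for Sgcb, and 8 and 1 for the Dysf windows. The second Dmd start, at position 85048295 of chrX, opens short isoforms near the 3′ end of the gene, and the counts below sum all isoforms of a gene.

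Library totals ran from 13989588 to 62042255 counts, and every level is given in CPM, the read count scaled to a common library size with TMM factors (trimmed mean of M-values), in the order B, C, D for control and A, E, F for miDrp1KO. The deleted gene was lower in all 3 miDrp1KO libraries, with Dnm1l at 156, 114 and 140 CPM in control and 70.6, 81.3 and 66.2 CPM in miDrp1KO (log2 fold change -0.91, SE 0.18, adjusted p = 0.362 by edgeR's quasi-likelihood test and 0.00302 by DESeq2). Library E stood apart, with a TMM factor of 1.42 against 0.840 to 1.04 in the other 5. The 37 ribosomal RNA genes took 1.48% of its counts, 23.0% of those of library A and 24.4% of those of library F, against 3.36 to 15.6% in control. Markers of muscle fibres were high in every library, but their summed level was 136888 to 151111 CPM in control and 63832 to 110911 CPM in miDrp1KO. Of the 8 genes 7 had a negative log2 fold change, among them Acta1 and Myh4, and Mb had a positive one (0.67, groups overlapping). Myh4, a fast fibre myosin, was the largest part of the control sum, at 49885 to 62914 CPM. It was at 12241 to 40363 CPM in miDrp1KO. All 7 slow fibre markers had positive log2 fold changes, with 0 at an unadjusted p under 0.05. Of the 8 muscle fibre markers edgeR called 0, with 2 lower at an unadjusted p under 0.05 (6.22% over all genes tested), and DESeq2 called 2 lower (2.14% over all genes it judged). In whole tissue, fewer cells of a type and less RNA per cell cannot be told apart.

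**Figure D1:**
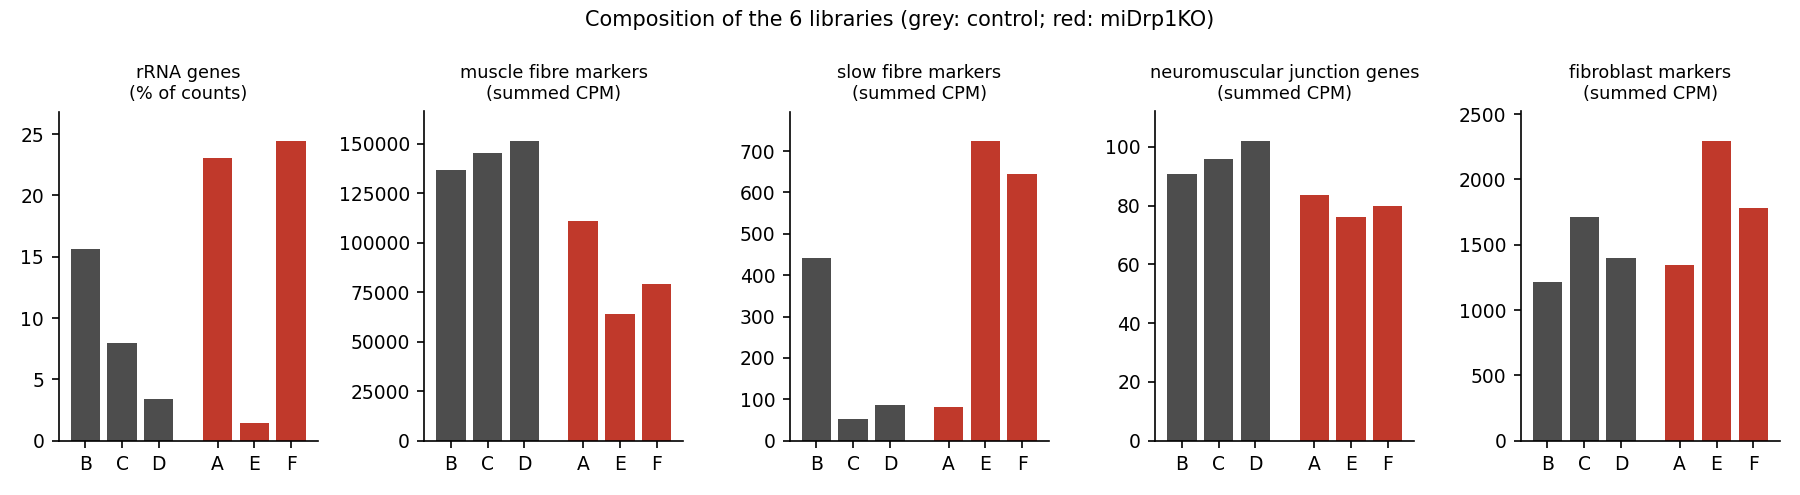
Composition of the 6 libraries, with control in grey and miDrp1KO in red: the share of counts on ribosomal RNA genes in percent, and the summed level in CPM of muscle fibre, slow fibre, neuromuscular junction and fibroblast genes, 1 bar per library. The muscle fibre and neuromuscular junction sums are lower in every miDrp1KO library than in every control library, while the ribosomal RNA, slow fibre and fibroblast values overlap.

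The 8 genes had lower means in miDrp1KO in 7 cases and a higher mean in 1, Lama2, and none of these differences passed the test across all genes. Dysf stood out in size, at 0.649 times the control level, followed by the 3 sarcoglycans and dystroglycan at 0.790 to 0.803 times. Dmd and Utrn, the 2 large linker proteins, differed less, with folds of 0.908 and 0.950. All 8 genes passed the filter on low counts. With an adjusted p under 0.05 as the call, edgeR called 0 of the 8 genes, beside 2 of 16483 genes tested (0.0121%), and DESeq2 also called 0, beside 95 lower genes among the 4431 to which it gave an adjusted p (2.14%). At an unadjusted p under 0.05, 1 of the 8 was lower, Dysf, where 6.22% of all genes were, and 0 were higher, where 4.68% were. The median log2 fold change of the 8 genes was -0.32, beside 0.02 over all genes tested, of which 7911 were negative and 8572 positive.

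**Figure D2:**
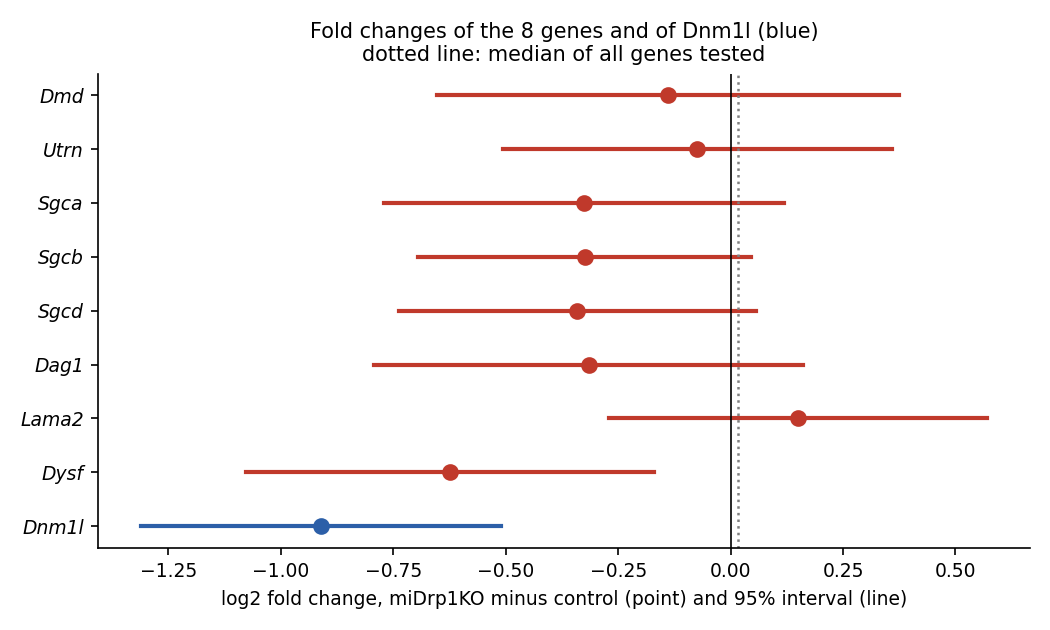
Log2 fold change of miDrp1KO over control on the horizontal axis for each of the 8 genes (red) and for Dnm1l (blue), with the point as the edgeR estimate and the line as its 95% interval, from 3 libraries per group. The intervals of Dysf and Dnm1l lie below 0, those of the other 7 genes include 0, and the dotted line marks the median of all genes tested, 0.02.

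Dmd (Entrez 13405, GRCm38 chrX:82814664-85205050, plus strand) was by far the most abundant of the 8 by counts. It was at 1043, 887 and 987 CPM in control and at 1096, 862 and 692 CPM in miDrp1KO. Library A thus held the highest and library F the lowest of the 6 values, and the groups overlapped. The means were 973 ± 79.0 and 883 ± 203 CPM (SD, n = 3 each), and the log2 fold change was -0.14 (SE 0.23, 95% interval -0.65 to 0.37, adjusted p = 0.859, edgeR). That interval covers folds from 0.636 to 1.30.

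Utrn (Entrez 22288, chr10:12382187-12869888, minus strand) was at 126, 116 and 130 CPM in control and at 115, 146 and 91.9 CPM in miDrp1KO. Its highest and lowest values were both in miDrp1KO, in libraries E and F. The log2 fold change was -0.07 (SE 0.20, interval -0.51 to 0.36, adjusted p = 0.919, edgeR). The ratio of Utrn to Dmd within a library, which needs no scaling between libraries, was -3.05, -2.93 and -2.93 on the log2 scale in control and -3.25, -2.56 and -2.91 in miDrp1KO. Its group means differed by 0.06, less than the spread between the miDrp1KO libraries (SD 0.35), with p = 0.7 in a two-sided exact permutation test. With 3 libraries per group the 20 possible splits allow no p below 0.1.

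Dag1 encodes dystroglycan, which is cut into the laminin-binding alpha and the membrane-spanning beta subunit (Entrez 13138, chr9:108204861-108263977, minus strand). Its levels were 168, 149 and 157 CPM in control and 166, 122 and 93.1 CPM in miDrp1KO. Library A lay inside the control range and libraries E and F lay below it. The log2 fold change was -0.32 (SE 0.22, interval -0.79 to 0.16, adjusted p = 0.617, edgeR). Without library A it was -0.53, and without library F it was -0.12, both with adjusted p above 0.05.

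Lama2 encodes the alpha 2 chain of the laminin that dystroglycan binds around muscle fibres (Entrez 16773, chr10:26981285-27617191, minus strand). It was at 145, 143 and 171 CPM in control and at 150, 206 and 154 CPM in miDrp1KO. Only library E exceeded the control range. The log2 fold change was 0.15 (SE 0.19, interval -0.27 to 0.57, adjusted p = 0.806, edgeR), and without library E it was -0.01. Library E also had the highest summed level of the 6 fibroblast markers, 2291 CPM against 1218 to 1779 CPM in the other 5 libraries. The part of fibroblast RNA in the Lama2 value was not tested.

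The sarcoglycans are membrane proteins that assemble into 1 subcomplex and steady the link between dystrophin and dystroglycan. Sgca, alpha-sarcoglycan (Entrez 20391, chr11:94962777-94976327, minus strand), was at 101, 107 and 110 CPM in control and at 89.0, 61.6 and 104 CPM in miDrp1KO. Library E was the lowest here, library A also lay below the controls, and library F lay within the control range. The log2 fold change was -0.33 (SE 0.20, interval -0.77 to 0.12, adjusted p = 0.578, edgeR). It was -0.14 without library E, -0.48 without library F and -0.52 with the ribosomal RNA covariate, each with adjusted p above 0.05.

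Sgcb, beta-sarcoglycan (Entrez 24051, chr5:73632749-73647737, minus strand), was at 115, 107 and 124 CPM in control and at 104, 87.9 and 84.1 CPM in miDrp1KO. Every miDrp1KO value lay below every control value, although library A and control library C were close. The means were 115 ± 8.94 and 92.0 ± 10.7 CPM (SD, n = 3 each), and the log2 fold change was -0.32 (SE 0.17, interval -0.70 to 0.05, adjusted p = 0.518, edgeR). Sgcd, delta-sarcoglycan (Entrez 24052, chr11:46971077-47989451, minus strand), was at 56.9, 56.4 and 52.2 CPM in control and at 54.7, 38.7 and 37.2 CPM in miDrp1KO. As for Dag1, library A sat among the controls and libraries E and F below them. The log2 fold change was -0.34 (SE 0.18, interval -0.74 to 0.06, adjusted p = 0.523, edgeR). It was -0.51 without library A and -0.22 without library F.

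Dysf (Entrez 26903, chr6:84008361-84211060, plus strand) was at 62.8, 46.5 and 63.4 CPM in control and at 43.2, 41.4 and 27.5 CPM in miDrp1KO. The groups did not overlap, with library F lowest and control library C nearest to the miDrp1KO values. The means were 57.6 ± 9.60 and 37.4 ± 8.56 CPM (SD, n = 3 each). The log2 fold change was -0.62 (SE 0.21, interval -1.08 to -0.17), a fold of 0.649 (interval 0.474 to 0.888), with an unadjusted p of 0.0113 and an adjusted p of 0.382 in edgeR. In DESeq2 the unadjusted p was 0.00692 and the adjusted p 0.115. The estimate was negative in each of the 17 other fits, between -0.77 and -0.25, and its adjusted p stayed above 0.05 in all of them. The share of the lower fibre marker levels in the Dysf value was not tested. With the mean log2 CPM of 7 slow fibre markers as a covariate, the Dysf log2 fold change was -0.61. That covariate holds none of the 8 muscle fibre markers, so it does not measure their lower level.

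**Figure D3:**
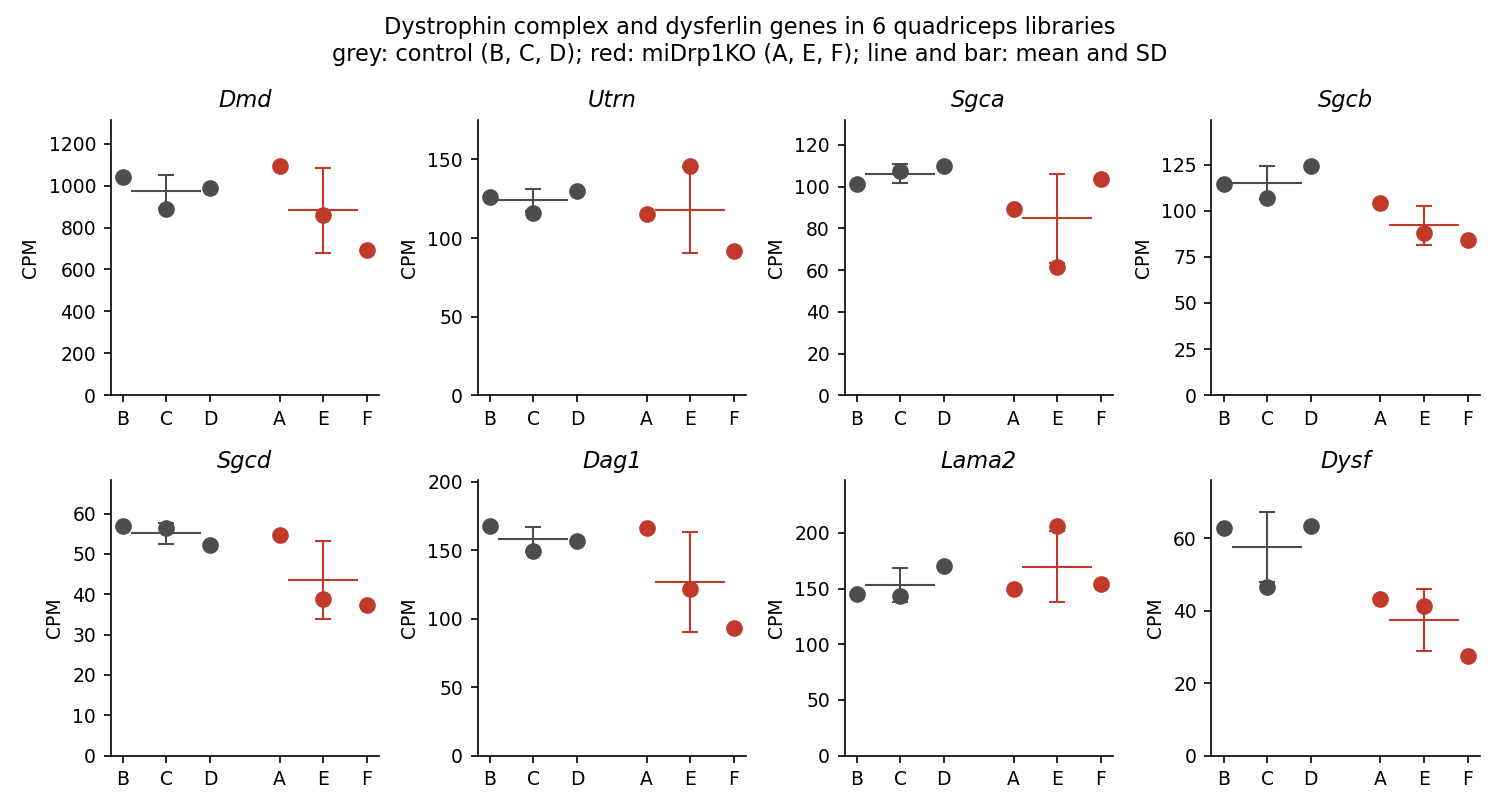
Level in CPM (vertical axis, from 0) of each of the 8 genes in the 3 control libraries (grey; B, C, D) and the 3 miDrp1KO libraries (red; A, E, F), with the group mean as a line and the SD as a bar. In Sgcb and Dysf every red point lies below every grey point, in the other 6 genes the groups overlap, and library F is the lowest of all 6 libraries in 6 of the 8 genes.

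For 2 of the 8 genes, Sgcb and Dysf, all miDrp1KO libraries were lower than all control libraries, which held for 10.3% of all genes tested. The opposite order was seen in 0 of the 8 genes and in 7.67% of all genes. In the exact permutation test of CPM these 2 genes reached the smallest possible p, 0.1, while Sgca and Sgcd had p = 0.2, Dag1 0.3, Lama2 0.5, Dmd 0.6 and Utrn 0.7. The 8 genes together took 0.172 to 0.181% of the counts outside ribosomal RNA genes in control and 0.177 to 0.225% in miDrp1KO, and 0.153 to 0.174% and 0.134 to 0.221% of all counts, with library F lowest. Dmd is the largest part of that sum. The negative fold changes are relative to the TMM-scaled library sizes. With library totals outside the ribosomal RNA genes and Lars2 in place of TMM, an alternative chosen after seeing the data, the median of all genes moved to 0.40 and that of the 8 genes to 0.06, with Dysf at -0.25 (unadjusted p = 0.205, edgeR) and Lama2 at 0.55 (unadjusted p = 0.0215, adjusted p = 0.164, edgeR).

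Ratios of a gene to a relative in the same library do not depend on that scaling. Myoferlin (Myof), a ferlin like dysferlin and prominent in myoblasts and regenerating fibres, had a log2 ratio to Dysf of -1.93, -1.13 and -1.82 in control and -0.88, -0.54 and -0.45 in miDrp1KO. All 3 miDrp1KO ratios were higher than all 3 control ratios, with means of -1.63 ± 0.43 and -0.62 ± 0.23 (SD, n = 3 each). The difference of 1.005 had p = 0.1 in the exact permutation test, the smallest it allows, and 0.3 after adjustment over the 3 ratios tested. Myof itself was at 18.5 ± 2.44 CPM in control and 24.0 ± 4.14 CPM in miDrp1KO (SD, n = 3 each, log2 fold change 0.38, adjusted p = 0.467, edgeR). The ratio of Sgce, the epsilon-sarcoglycan found in many tissues, to Sgca differed by 0.32 with overlapping groups (exact permutation p = 0.4, adjusted 0.6), and by 0.0970 without library E to 0.492 without control library C.

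Further ratios were chosen after the values were seen and are given without a test. Dysf over Dmd was -4.05, -4.25 and -3.96 on the log2 scale in control and -4.67, -4.38 and -4.65 in miDrp1KO. Dysf was thus also lower relative to Dmd in all 3 miDrp1KO libraries, by 0.48 on average. Lama2 over Dag1, the pair of ligand and receptor, was -0.21, -0.06 and 0.12 in control and -0.15, 0.76 and 0.72 in miDrp1KO. Libraries E and F were higher than the controls and library A lay among them.

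**Figure D4:**
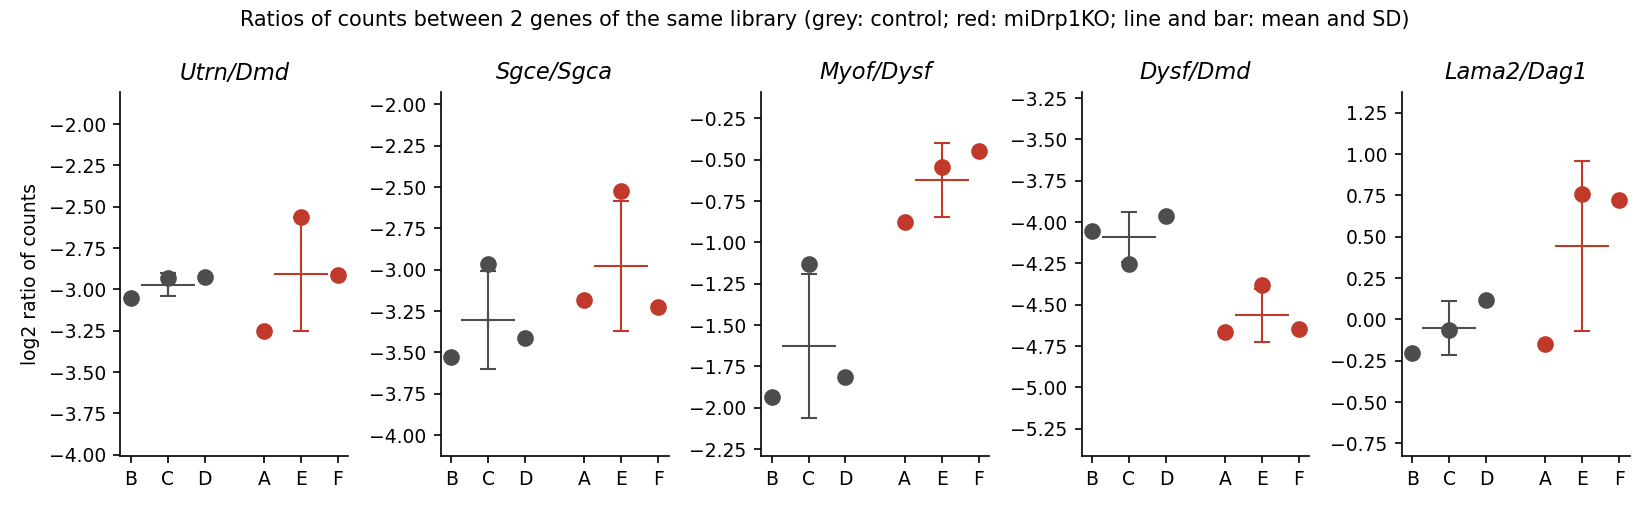
Log2 ratio of the counts of 2 genes within each library (vertical axis), for Utrn/Dmd, Sgce/Sgca, Myof/Dysf, Dysf/Dmd and Lama2/Dag1, with control in grey, miDrp1KO in red, the group mean as a line and the SD as a bar. Myof/Dysf is higher in every miDrp1KO library (-0.88 to -0.45) than in every control library (-1.93 to -1.13), Dysf/Dmd is lower in every one, and the other 3 ratios overlap.

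Per kilobase of exon, which allows genes to be compared, the control levels ran from 61.2 ± 2.62 CPM per kb for Sgca down to 6.68 ± 0.316 for Sgcd (SD, n = 3 each). Dmd came next to Sgca at 40.9 CPM per kb, although its exons add up to 23.8 kb and it had the most counts. Sgcb (28.4) and Dag1 (24.9) followed and overlapped each other, then Lama2 (9.36). Utrn (7.24), Dysf (6.91) and Sgcd (6.68) closed the order, and in it Utrn overlapped Dysf and Dysf overlapped Sgcd across the control libraries. Dmd was above Utrn per kb in every control library. Exonic lengths sum all annotated exons of a gene, so a gene with many alternative exons is set too low.

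All 8 genes had a larger coefficient of variation (SD over mean) among the miDrp1KO libraries than among the control libraries. For Dysf the SD itself was larger in control, at 9.60 CPM against 8.56 CPM in miDrp1KO. The median coefficient of variation of the 8 was 6.77% in control and 22.9% in miDrp1KO. A larger coefficient in miDrp1KO was found for 57.4% of all genes tested and for 72.6% of the 2709 genes with a mean of at least 40 CPM, where the medians were 10.04% and 17.6%. Library F held the lowest of the 6 values in 6 of the 8 genes, and library E held the highest for Utrn and Lama2 and the lowest for Sgca.

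Across the 6 libraries the log2 levels of Dmd, Dag1, Sgcb, Sgcd and Dysf followed a like order, with Pearson's r from 0.75 to 0.96 between any pair of the 5. It was 0.96 between Dmd and Dag1, 0.92 between Sgcd and Dag1 and 0.91 between Sgcb and Dysf. For Sgca r was 0.54 to Sgcb, 0.50 to Sgcd, 0.03 to Dmd and -0.79 to Lama2, while Utrn and Lama2 had r = 0.63. These values describe 6 libraries that share their scaling and their group difference. The genes most like Dmd among 7205 genes of at least 10 CPM were Fbxl20 (r = 0.996), Lemd3 (0.990) and Daglb (0.989), and 308 genes had an r over 0.9. For Dysf they were Snrnp35 (0.994), D5Ertd579e (0.994) and Fam120a (0.992), and 600 genes had an r over 0.9.

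The other genes of the complex were described from a list of 13, namely sarcoglycans, sarcospan, syntrophins, dystrobrevins, Drp2 and neuronal nitric oxide synthase (Nos1), which is anchored at the membrane by syntrophin. Of the 12 tested, 0 were called by edgeR or voom and 0 had an unadjusted p under 0.05 in edgeR (6.22% lower and 4.68% higher over all genes tested), while DESeq2 gave an adjusted p to 5 of the genes and called 0. In 1 gene all miDrp1KO libraries were below all control libraries (10.3% over all genes), and in 0 genes above (7.67%). Their median log2 fold change in edgeR was -0.09. Drp2, a dystrophin relative of Schwann cells, was at 7.03 ± 1.74 CPM in control and 9.55 ± 1.87 CPM in miDrp1KO, and Sntb1, beta-1 syntrophin, at 4.11 ± 1.84 and 2.69 ± 0.237 CPM (SD, n = 3 each), with adjusted p of 0.508 and 0.537 in edgeR. Nos1, named after its values were seen, was at 57.2, 45.9 and 42.2 CPM in control and 47.7, 37.1 and 22.6 CPM in miDrp1KO, so that library F was again the lowest.

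Laminin binds dystroglycan through sugar chains, which the 18 listed glycosylation genes build on alpha-dystroglycan or supply with precursors. Of the 17 tested, 0 were called by edgeR or voom, and DESeq2 called 0 of the 5 to which it gave an adjusted p. At an unadjusted p under 0.05 in edgeR, 1 was higher and 2 were lower (4.68% and 6.22% over all genes tested), and the median log2 fold change was -0.12. Pomt1, which starts the chain by adding mannose, was at 10.9, 12.2 and 11.8 CPM in control and 9.38, 7.70 and 6.86 CPM in miDrp1KO. The groups did not overlap, as for 10.3% of all genes in that direction, and the log2 fold change was -0.55 (SE 0.18, unadjusted p = 0.0119, adjusted p = 0.382, edgeR). Dpm1 and Dpm3 encode subunits of 1 enzyme, dolichol-phosphate mannose synthase, which supplies that mannose. Their values lay in opposite directions, with Dpm3 at 3.72 ± 0.582 and 6.27 ± 1.51 CPM (log2 fold change 0.73, adjusted p = 0.382) and Dpm1, named after its values were seen, at 66.6 ± 3.90 and 52.3 ± 4.66 CPM (-0.35, adjusted p = 0.451; SD, n = 3 each, edgeR). B3galnt2, the most abundant of the list, was at 69.1 ± 7.01 and 62.3 ± 5.33 CPM.

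On the outer side, 16 genes of laminins, nidogens, collagens IV and VI, perlecan, agrin and the laminin receptor integrin alpha 7 beta 1 were tested. Of these, edgeR and voom called 0, DESeq2 called 0 of the 13 to which it gave an adjusted p, 0 had an unadjusted p under 0.05 (6.22% lower and 4.68% higher over all genes tested), 0 had groups that did not overlap (10.3% and 7.67%), and the median log2 fold change was -0.09. Itga7, the muscle integrin alpha chain, was at 42.3, 29.9 and 36.9 CPM in control and 26.9, 27.7 and 30.2 CPM in miDrp1KO, with control C just under library F (log2 fold change -0.36, SE 0.17, adjusted p = 0.460, edgeR). Nid1, nidogen, which bridges laminin and collagen IV, was at 112 ± 25.7 and 145 ± 27.7 CPM, and Itgb1 at 269 ± 16.7 and 240 ± 25.1 CPM (SD, n = 3 each).

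Of 21 other genes tied to membrane repair, 0 were called by edgeR or voom, and DESeq2 called 0 of the 16 to which it gave an adjusted p (smallest 0.0615). At an unadjusted p under 0.05 in edgeR, 6 were lower and 1 was higher, where 6.22% and 4.68% of all genes tested were, and the median log2 fold change was -0.20. Capn3, calpain 3, a muscle protease whose loss also causes a limb-girdle dystrophy, was at 149, 136 and 146 CPM in control and 106, 98.0 and 90.4 CPM in miDrp1KO. The gap between its groups exceeded the range within either group, and the log2 fold change was -0.55 (SE 0.16, unadjusted p = 0.00630, adjusted p = 0.379, edgeR). Chmp4b, a subunit of the ESCRT-III machinery that pinches off damaged membrane, was at 96.5, 115 and 99.4 CPM in control and 84.9, 71.0 and 66.9 CPM in miDrp1KO (log2 fold change -0.48, adjusted p = 0.392). The other lower genes, named after their values were seen, were Capn1 (calpain 1, log2 fold change -0.46), Anxa6 (annexin A6, -0.45), Cavin4 (a caveolar coat protein, -0.42) and Trim72 (MG53, which nucleates the repair patch, -0.39). Each was lower in all 3 miDrp1KO libraries than in every control library, which held for 10.3% of all genes, with adjusted p from 0.393 to 0.432 in edgeR. The higher gene, also named after its values were seen, was S100a10, the partner of annexin A2. It was at 19.8 ± 3.62 CPM in control and 28.8 ± 5.18 CPM in miDrp1KO (SD, n = 3 each). Ahnak, a very large scaffold protein and the most abundant of the list, was at 1212 ± 66.5 and 1199 ± 235 CPM, and Ano5, named after its values were seen, at 318 ± 28.9 and 279 ± 57.8 CPM.

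Markers of other cells and states were set beside these values. The 8 neuromuscular junction genes, where utrophin is concentrated, summed to 90.9 to 102 CPM in control and 76.2 to 83.5 CPM in miDrp1KO, with a median log2 fold change of -0.15. Gene by gene, edgeR called 0 of the 8, and 1 was lower at an unadjusted p under 0.05 (6.22% over all genes tested). In 1 gene all miDrp1KO libraries were below all control libraries (10.3% over all genes tested). Slow fibre markers summed to 52.8 to 441 CPM in control and 81.2 to 723 CPM in miDrp1KO, with libraries E and F above all others, control B next, and library A near the other controls. Adipocyte markers were 163 to 347 CPM in control and 61.9 to 158 CPM in miDrp1KO. DESeq2 called lower both adipocyte markers to which it gave an adjusted p, while edgeR called 0 of the 4 and had 3 lower at an unadjusted p under 0.05 (2.14% and 6.22% over all genes judged by each). Of the regenerating fibre markers, the myosins Myh8 and Myh3 made up nearly all of the summed level, with means of 2131 and 303 CPM in control and 870 and 152 CPM in miDrp1KO, and Myog and Myod1 had log2 fold changes of 0.20 and 0.42. Of these 4 genes edgeR called 0, with adjusted p = 0.393 for Myh8 and 0.523 for Myh3, whose groups overlapped. At an unadjusted p under 0.05, 1 was lower, Myh8 (6.22% over all genes tested). It was also the 1 gene whose miDrp1KO libraries were all below the control libraries (10.3% over all genes tested). The log2 fold change of Myh8 was -1.29, the same as that of Myh4, an adult fast myosin among the muscle fibre markers. The part of the Myh4 level in the Myh8 value was not tested. Endothelial, smooth muscle, macrophage, Schwann cell and fibroblast sums overlapped between the groups, and no marker list had a gene at 0 in all libraries. Of the 5 macrophage markers, 3 (Cd68, Ptprc and C1qa) were higher in all 3 miDrp1KO libraries than in every control library, 2 of them at an unadjusted p under 0.05 (7.67% and 4.68% over all genes tested). Adgre1 and Csf1r overlapped between the groups, with log2 fold changes of -0.05 and 0.16. Control library C had the highest summed level of the macrophage markers, 85.0 CPM, against 76.2 to 81.4 CPM in miDrp1KO. All 6 fibroblast and all 5 Schwann cell markers had positive log2 fold changes, with 0 at an unadjusted p under 0.05 and 0 called by edgeR, voom or, where it gave an adjusted p, DESeq2. The part of these differences in the values of the 8 genes was not tested.

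Gene length was checked because 3 of the 8 genes (Dmd, Utrn and Lama2) are among the 1484 longest of the 14833 tested genes with a known length, those with 9.93 kb or more of exons. The 1484 genes had a median log2 fold change of -0.05. With an offset for length and GC content, Sgca, Sgcb and Sgcd had log2 fold changes of -0.44, -0.39 and -0.46 and, like Dysf at -0.60, an unadjusted p under 0.05, while 0 of the 8 genes was called. In the same fit 1886 of 14833 genes had such a p in either direction.

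**Figure D5:**
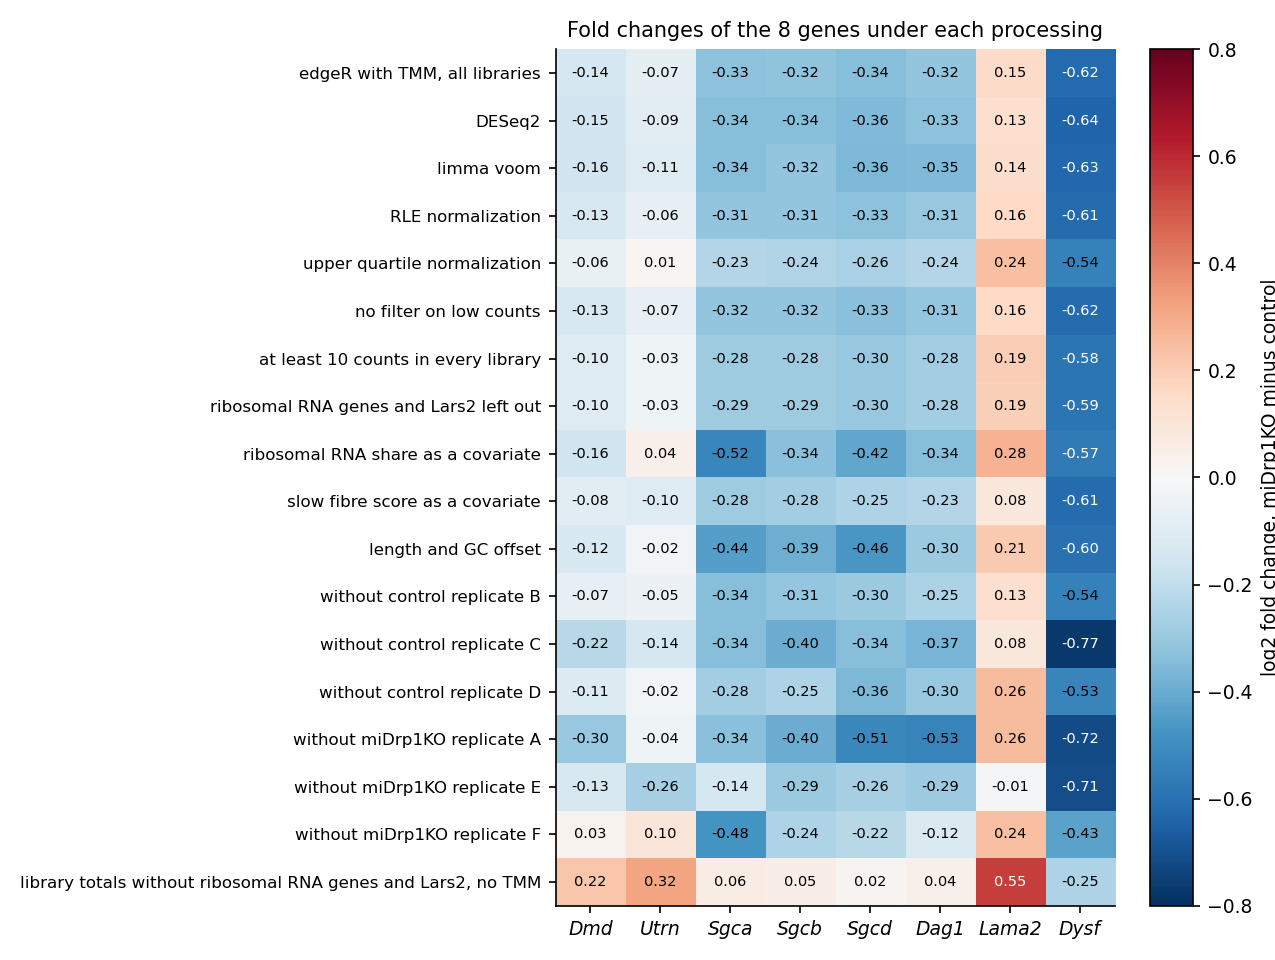
Log2 fold change of miDrp1KO over control (colour and printed value) for each of the 8 genes (columns) under each processing or left-out library (rows), with the edgeR fit to all libraries in the top row. Dysf is negative in every row (-0.77 to -0.25), Sgca, Sgcb, Sgcd and Dag1 are negative in every row but the bottom one, which drops TMM scaling, and Dmd, Utrn and Lama2 lie on both sides of 0.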

How the data were processed

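RNA of 3 control and 3 miDrp1KO quadriceps samples was measured by ribosomal RNA-depleted, stranded total RNA sequencing. Per the study's methods, the authors aligned reads to the mouse genome and counted them per gene with Rsubread. The submitters' processing notes name build GRCm38, FastQC and DESeq2 1.30.0. The deposited files hold raw counts per gene, with no normalization, and 874 of the 27179 genes carry no symbol. The strand setting and the handling of reads that fit several genes are not given in the sources used here. Exons of Lama2 overlap those of 1 opposite-strand gene and exons of Dysf those of 2, none of which is listed in the count files.

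Counts were tested with edgeR 4.0.16 in R 4.3.3 (filterByExpr by group, TMM factors, robust quasi-likelihood test, Benjamini-Hochberg adjustment over 16483 genes, threshold 0.05). The biological coefficient of variation was 0.252. DESeq2 1.42.0 and limma 3.58.1 (voom) were alternatives, with other normalizations and filters, covariates, an offset for length and GC content (14833 genes), and each library left out. CPM values and within-library log2 ratios (0.5 added to each count) were compared by two-sided exact permutation tests over 20 splits. The fit was tested on simulated data. The depth, 13989588 to 62042255 counts per library, left 574 counts behind the least covered value of the 8 genes (Dysf in library F) and 59283 behind the most covered (Dmd in library D). Lengths and coordinates come from GENCODE M21 on GRCm38, and promoters from RefSeq (GRCm38.p6).

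The 8 genes and all gene lists were chosen with earlier results of these data known. Of each list outside the 8, the text names the gene with the highest mean CPM and the 2 with the smallest edgeR p. For Dmd and Dysf it names the 3 genes of at least 10 CPM with the highest correlation. Myof and Sgce are named for their ratios. Other names from these lists are marked as chosen after their values were seen. Marker lists are given mainly as sums, and the single markers named from them were also chosen with their values seen. The planned comparison of protein sequences was not run. A gene that the rule for names would include is not reported here.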

Additional observations from a re-analysis of the deposited data

How the results depend on the processing

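Under the 17 alternatives that refit the genes, Dysf and Dnm1l stayed negative, and Sgca, Sgcb, Sgcd and Dag1 stayed negative in all but one. That one was chosen after seeing the data and used library totals outside the ribosomal RNA genes and Lars2 without TMM. It gave Sgca 0.0622, Sgcb 0.0529, Sgcd 0.0205, Dag1 0.0401, Dmd 0.224, Utrn 0.315 and a median of 0.0575, against a median of 0.40 over all genes, and called 1 gene. Utrn was 0.0134 with upper quartile factors and 0.0417 once the ribosomal RNA share entered the model. Leaving out 1 library in turn moved the median of the 8 genes between -0.37 and -0.17 (without library F), Dmd between -0.30 (without A) and 0.0281 (without F), Utrn between -0.26 (without E) and 0.0967 (without F), Lama2 between -0.0139 (without E) and 0.26, and the Utrn/Dmd difference between -0.11 (without E) and 0.23 (without A). None of the 8 genes was called by adjusted p in any fit, and 1, Dysf, was at an unadjusted p under 0.05. Without TMM it was Lama2, higher, in place of Dysf. That count was 2 with the ribosomal RNA covariate, 4 with the length and GC offset, and 0 (without control D, where Dysf just missed that threshold) to 4 (without library A) with a library left out; without library F it was 2. Over all genes such a p was found for 1796 of 16483, for 1375 with the ribosomal RNA covariate, 1886 of 14833 with the offset, 951 of 17750 without control D, 3115 of 17845 without library A, 1337 of 17161 without library F and 3993 of 16225 without TMM. Over all genes, the 2 calls became 113 with DESeq2 (18 higher, 95 lower), 8 without a filter on low counts, 1 with the ribosomal RNA covariate, 4 with the slow fibre covariate, 1 (without library E or F) to 7 (without library A) with a library left out and 1796 by unadjusted p. For Dnm1l, DESeq2 gave -0.93 with an adjusted p of 0.00302. The cause was not tested. No paired analysis was possible because the labels name no pairs of control and miDrp1KO animals. There are 3 libraries per group, and the interval of Dysf spans folds from 0.474 to 0.888.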
